A study of Rattus norvegicus with 26 samples.

Results

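The genes examined were 9 that encode RNA-binding proteins of regulated splicing and mRNA stability: the Hu proteins Elavl1, Elavl2, Elavl3 and Elavl4, the CELF protein Celf4, the neuronal antigen NeuN (Rbfox3), Nova1, and the polypyrimidine tract-binding proteins Ptbp1 and Ptbp2. They were taken by gene symbol from the annotation of the array's probe sets, as a list drawn up with earlier results of these data known, and every probe set of each gene was kept. Annotation placed 8 of the 9 genes on the array with 14 probe sets, of the 31042 probe sets tested. No probe set carried Nova1 by symbol, gene identifier, synonym or accession, so Nova1 was not analysed here.

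RNA came from cultures of neurons (N), astrocytes (A), oligodendrocytes (O) and microglia (M) grown from the cortex of rats at postnatal day 1, with 4 arrays (Affymetrix, 1 colour) for each culture and no strain, genotype or treatment named in the labels. A further 10 arrays carried culture RNA mixed in stated fractions, with 2 replicates of each of 5 mixtures. Neuronal RNA made up a fraction of 0.25 in NA1, 0.5 in NA2 and 0.75 in NA3, and astrocytic RNA was the remainder. In NAO the fractions were 0.5 neuronal, 0.25 astrocytic and 0.25 oligodendrocytic, and in NAOM 0.5 neuronal, 0.2 astrocytic, 0.2 oligodendrocytic and 0.1 microglial. The first replicate of each mixture drew on neuronal array RNA N1 and astrocytic RNA A1, the second on N2 and A4. Microglial array M4 is described as a mixture in one label and as a microglial culture in another, and was kept as a culture. All levels below are the deposited log2 expression values, so a difference of 1 is a doubling, and levels of different probe sets have no common scale.

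The cultures were not pure by their markers. The mean log2 level of 12 neuronal markers lay between 10.53 and 10.69 on the neuronal arrays. It lay between 5.56 and 6.31 in oligodendrocyte cultures, where 6 of 12 markers had a culture mean below the median level. It lay between 4.89 and 5.21 in astrocyte cultures (9 of 12) and between 5.07 and 5.49 in microglia (9 of 12). The mean of 9 astrocyte markers was 7.71, 8.61, 10.01 and 9.74 on neuronal arrays N1 to N4, with all 9 above the array medians, against 10.12 to 11.54 in astrocyte cultures. Oligodendrocyte cultures carried 10 microglial markers at a mean of 7.90 to 9.09, with 1 of 10 below the medians, against 10.13 to 10.90 in microglia. Microglial cultures in turn carried 9 oligodendrocyte markers at 6.90 to 8.26, with 2 of 9 below the medians, against 9.01 to 11.07 in oligodendrocyte cultures. The mean of 8 fibroblast and vessel markers was 7.59 on astrocytic array A4, against 5.43, 5.54 and 5.57 on A1 to A3. In mixtures this mean was 6.65 to 7.40 on second replicates, which hold A4 RNA, and 4.51 to 5.15 on first replicates. In bulk cultures such as these, fewer cells of a type and less RNA per cell cannot be told apart. Array medians lay between 5.25 and 5.31 in cultures and between 5.33 and 5.41 in mixtures. Where a group's level lay below these medians, background compresses the difference, and the fold given is a lower bound as far as background goes. Precision is set by the small number of arrays.

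Polypyrimidine tract-binding proteins bind pyrimidine-rich RNA beside exons and commonly repress their inclusion. Ptbp1 is widely expressed outside neurons and is known to hold many neuronal exons out, among them an exon of Ptbp2 whose skipping leads to decay of the Ptbp2 transcript, and the microRNA miR-124 is known to lower Ptbp1 in developing neurons. Elavl2, Elavl3 and Elavl4 are the Hu proteins of neurons, which bind AU-rich and U-rich RNA, whereas Elavl1 (HuR) is found in most cell types. Celf4, Rbfox3 and Nova1 are RNA-binding proteins of mature neurons.

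Promoter windows are printed here for Ptbp1, lower in the neuronal cultures, for Elavl1, whose probe sets disagreed, and for Ptbp2, Elavl2 and Elavl4, higher in the neuronal cultures. Each is a window of 300 bases that ends shortly after the annotated start, 5′ to 3′ on the gene's strand, from RefSeq on build GRCr8, which held a window for 7 of the 9 genes. Capitals mark matches to 4 motifs searched on both strands: CCAAT, the GC box GGGCGG, the E-box CAGCTG and TCAGCACC, a part of the RE1 element bound by REST.
Ptbp1, chr7:10502908-10503207, minus strand: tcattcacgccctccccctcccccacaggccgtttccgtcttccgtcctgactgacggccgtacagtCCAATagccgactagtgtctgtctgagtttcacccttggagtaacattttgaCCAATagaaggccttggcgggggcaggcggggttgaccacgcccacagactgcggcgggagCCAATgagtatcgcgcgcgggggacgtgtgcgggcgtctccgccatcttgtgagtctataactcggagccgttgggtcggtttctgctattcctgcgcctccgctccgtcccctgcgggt
Elavl1, chr12:7482576-7482875, minus strand: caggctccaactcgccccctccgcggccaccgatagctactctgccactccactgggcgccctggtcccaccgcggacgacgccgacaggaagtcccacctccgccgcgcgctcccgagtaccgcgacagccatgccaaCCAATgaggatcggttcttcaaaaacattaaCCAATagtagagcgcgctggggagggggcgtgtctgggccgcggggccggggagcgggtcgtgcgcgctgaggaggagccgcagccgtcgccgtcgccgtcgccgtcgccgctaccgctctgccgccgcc
Ptbp2, chr2:210558228-210558527, minus strand: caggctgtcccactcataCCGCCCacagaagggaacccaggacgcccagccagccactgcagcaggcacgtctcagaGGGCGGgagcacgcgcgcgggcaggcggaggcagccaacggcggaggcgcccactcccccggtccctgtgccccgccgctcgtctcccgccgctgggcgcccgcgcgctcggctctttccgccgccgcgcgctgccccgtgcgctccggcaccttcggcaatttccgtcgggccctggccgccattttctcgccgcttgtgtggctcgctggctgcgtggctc
Elavl2, chr5:111202238-111202537, minus strand: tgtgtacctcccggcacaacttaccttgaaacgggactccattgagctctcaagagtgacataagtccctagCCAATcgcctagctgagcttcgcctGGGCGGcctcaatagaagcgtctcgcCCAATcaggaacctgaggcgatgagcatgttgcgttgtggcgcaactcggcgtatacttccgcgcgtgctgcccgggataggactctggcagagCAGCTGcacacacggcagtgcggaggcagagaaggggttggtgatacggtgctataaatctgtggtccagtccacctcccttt
Elavl4, chr5:130367614-130367913, minus strand: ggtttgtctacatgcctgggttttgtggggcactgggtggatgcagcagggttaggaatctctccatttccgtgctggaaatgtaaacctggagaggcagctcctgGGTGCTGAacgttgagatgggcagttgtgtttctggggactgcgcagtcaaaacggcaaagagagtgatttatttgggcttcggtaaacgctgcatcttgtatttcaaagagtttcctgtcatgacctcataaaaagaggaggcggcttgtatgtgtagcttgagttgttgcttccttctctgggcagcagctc
The Ptbp1 window held 3 CCAAT matches and the Elavl1 window 2, with none of the other motifs. The Ptbp2 window held 2 GC boxes and no CCAAT, and the Elavl2 window 2 CCAAT, 1 GC box and 1 E-box. CCAAT was thus found in windows of genes higher and lower in neurons. The Elavl3 window, not printed, held 2 GC boxes and no CCAAT. The Elavl4 window held 1 match to the RE1 part, on the opposite strand, and 7 CpG dinucleotides, against 27 for Ptbp1, 41 for Elavl1, 39 for Ptbp2 and 19 for Elavl2. Among 33469 rat promoter windows of the same length, 37.5% held CCAAT, 33.1% the GC box, 15.1% the E-box and 1.48% the RE1 part, and the median window held 7 CpG. No match overlapped another. A match is a description of these letters and not a binding site.

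The first comparison set neuronal cultures against each other culture. A call needed a log2 difference of at least 1 and, in limma, an adjusted p under 0.05 after Benjamini-Hochberg correction over all probe sets. Against astrocytes, 9 of the 14 probe sets were higher in neurons and 2 lower, where 24.0% of all probe sets were called. Against oligodendrocyte cultures 7 were higher and 2 lower (21.6% of all called), and against microglia 7 were higher and 2 lower (25.7%), with 9 called also without array M4. Of the 14, 7 passed as higher than each of the 3 other cultures, where 7.49% of all probe sets did, and 2 as lower than each, where 4.59% did. The 7 belonged to Celf4, Elavl2, Elavl4, Rbfox3 and Ptbp2, and the 2 to Ptbp1 and Elavl1. The median difference of the 14 probe sets from the mean of the other 3 cultures was 1.55, beside -0.07 over all probe sets, and 8 were called higher and 2 lower in that contrast (22.5% of all).

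**Figure D1:**
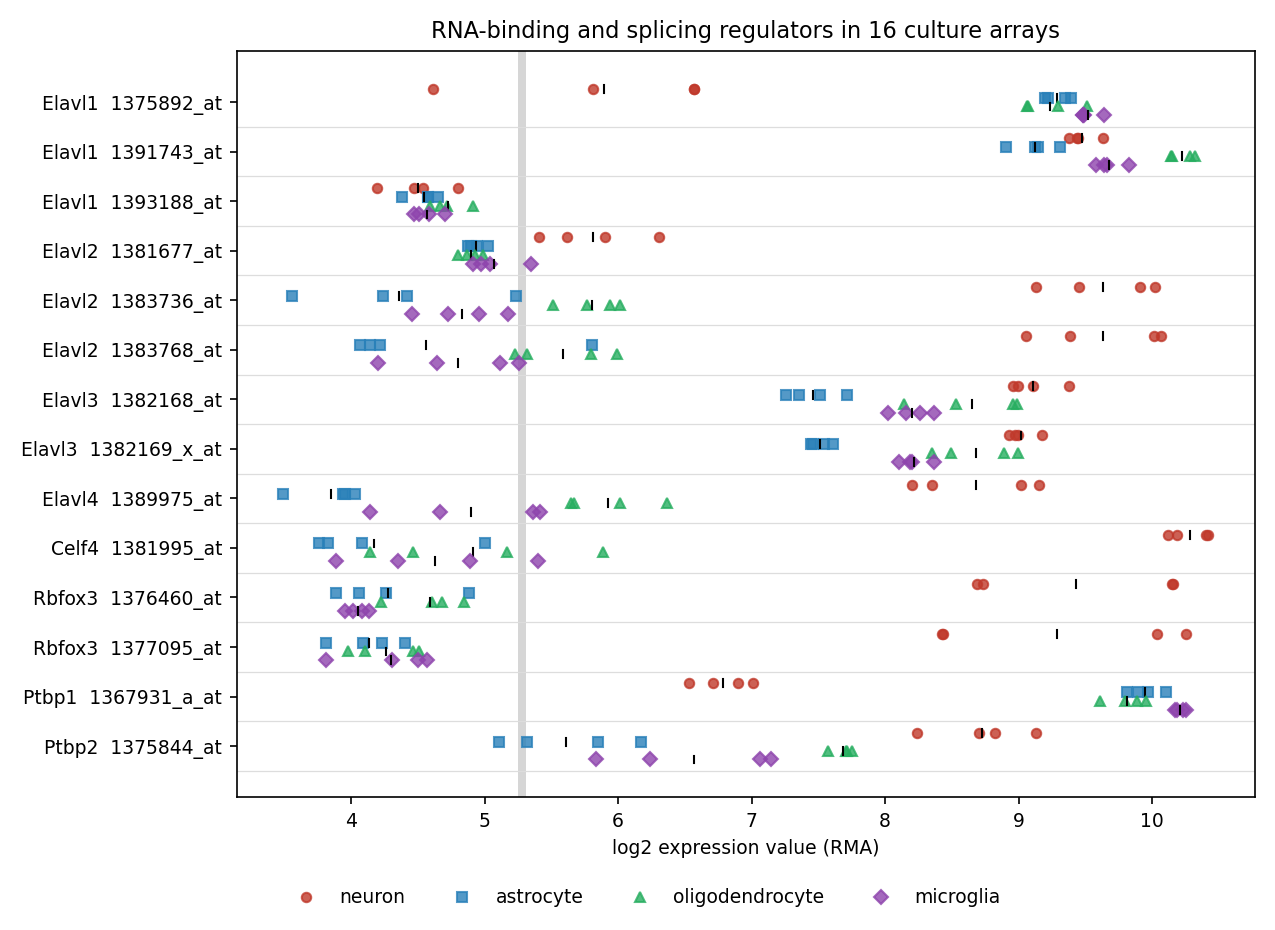
Log2 expression value (x axis) of each of the 14 probe sets on the 16 culture arrays; each point is 1 array, the short black line is the culture's mean, and the grey band spans the medians of the culture arrays (5.25 to 5.31). Ptbp1 and Elavl1 1375892_at lie lowest in neurons, Celf4, Rbfox3, Elavl4 and 2 Elavl2 probe sets lie low outside neurons, and Elavl3 lies well above the band in every culture.

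Ptbp1, the repressor of neuronal exons, was represented by 1 probe set (1367931_a_at). Its log2 level was 6.71, 7.01, 6.53 and 6.90 on the neuronal arrays, 10.11, 9.82, 9.89 and 9.97 in astrocytes, 9.61, 9.80, 9.95 and 9.89 in oligodendrocyte cultures and 10.18, 10.25, 10.23 and 10.19 in microglia. All 4 neuronal arrays lay below all 12 others, by more than the spread within any culture, and every Ptbp1 level was above its array's median. The neuronal level differed by -3.16 ± 0.11 (SE, adjusted p = 6.39e-12) from astrocytes, by -3.02 ± 0.11 (adjusted p = 1.48e-11) from oligodendrocyte cultures and by -3.42 ± 0.11 (adjusted p = 3.00e-12) from microglia. On the linear scale of the same probe set, astrocytes held 888% of the neuronal level, oligodendrocyte cultures 810% and microglia 1065%. In the order of levels, microglia (10.21 ± 0.04, SD, n = 4) stood above astrocytes (9.95 ± 0.12) and these above oligodendrocyte cultures (9.81 ± 0.15). Neither neighbouring pair passed the test (adjusted p = 0.0709 and 0.403), while oligodendrocyte cultures and microglia differed by -0.40 (adjusted p = 0.0137), under the minimum difference. Markers of dividing cells moved with Ptbp1: the mean of 8 such genes was 4.27 to 4.36 on neuronal arrays, with 7 of 8 below the medians, and 7.46 to 8.18 on the 12 other culture arrays. Their part in the Ptbp1 difference was not tested.

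Ptbp2, the paralogue found in differentiating neurons, ran the other way but was not low in all glia. The level of 1375844_at was 9.13, 8.83, 8.24 and 8.71 in neurons, 7.71, 7.57, 7.71 and 7.75 in oligodendrocyte cultures, 7.06, 7.15, 5.83 and 6.24 in microglia and 6.17, 5.11, 5.85 and 5.32 in astrocytes. Neuronal arrays lay above all others, oligodendrocyte arrays above all microglial and astrocytic ones, and microglial and astrocytic arrays overlapped. The difference was 3.11 ± 0.29 against astrocytes (adjusted p = 2.49e-07), 2.15 ± 0.29 against microglia (adjusted p = 1.14e-05) and 1.04 ± 0.29 against oligodendrocyte cultures (adjusted p = 0.00805), where these held 47.6% of the neuronal linear level. The last call rested on neuronal array N1: without it the difference was 0.90 (adjusted p = 0.0299), under the minimum, and without N1 and N2 it was 0.79 (adjusted p = 0.11). Ptbp2 was also higher in oligodendrocyte cultures than in microglia, by 1.12 ± 0.29 (adjusted p = 0.00926). That difference fell below the minimum, to 0.87, without microglial array M3. Astrocytes and microglia differed by -0.96 (adjusted p = 0.0152), just under the minimum. Neuronal markers in the oligodendrocyte cultures (5.56 to 6.31) stood above those in astrocytes and microglia. Microglial arrays M1 and M2, the higher pair for Ptbp2, also held the higher means of 9 oligodendrocyte markers, 8.26 and 8.18 against 6.90 on M3 and 7.76 on M4. The part of either marker list in these Ptbp2 levels was not tested.

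Set against each other on the same array, Ptbp2 minus Ptbp1 was 1.94 ± 0.32 (SD, n = 4) in neurons, -2.13 ± 0.16 in oligodendrocyte cultures, -3.64 ± 0.64 in microglia and -4.34 ± 0.40 in astrocytes. Only the change of this value between groups can be read, since the probe sets share no scale. The 4 neuronal arrays (1.71 to 2.42) lay above the other 12, of which the highest was -1.90. From the mean of the other cultures to neurons the shift was 5.30, with Ptbp1 different by -3.20 ± 0.09 (adjusted p = 4.06e-13) and Ptbp2 by 2.10 ± 0.23 (adjusted p = 1.60e-06). The shift was smallest against oligodendrocyte cultures (4.06), where Ptbp2 was highest outside neurons, 5.58 against microglia and 6.27 against astrocytes. Leaving out any 1 culture array kept the shift from the mean between 5.14 and 5.38.

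**Figure D2:**
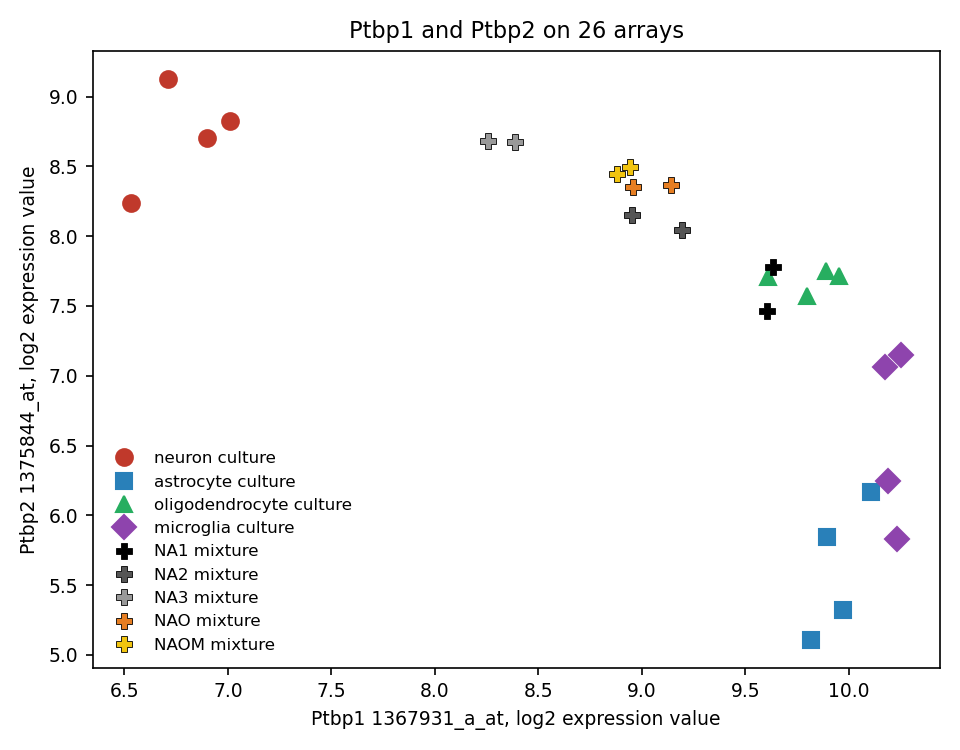
Log2 level of Ptbp2 (y axis) against that of Ptbp1 (x axis) on all 26 arrays, with 1 point per array. Neuronal arrays sit at low Ptbp1 and high Ptbp2, the 12 other culture arrays sit at Ptbp1 of 9.61 or more, and the oligodendrocyte arrays hold a higher Ptbp2 than astrocytic and microglial arrays at a similar Ptbp1.

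Celf4, which in mouse is known to bind mRNAs of synaptic proteins, was high in neurons alone among the cultures. Its level (1381995_at) was 10.40, 10.42, 10.12 and 10.19 in neurons, 3.83, 4.08, 3.76 and 5.00 in astrocytes, 5.89, 4.46, 5.17 and 4.14 in oligodendrocyte cultures and 4.89, 4.35, 5.40 and 3.89 in microglia. The neuronal arrays were high and close together, and 10 of the 12 others lay below their array's median. Neurons exceeded astrocytes by 6.11 ± 0.38 (adjusted p = 2.90e-09), oligodendrocyte cultures by 5.37 (adjusted p = 1.54e-08) and microglia by 5.65 (adjusted p = 5.29e-09), which leaves 1.53% to 2.70% of the neuronal linear level outside neurons as an upper bound, since most of those levels lay at background. None of the 3 differences among the non-neuronal cultures passed the test (adjusted p = 0.153 to 0.623).

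Rbfox3, whose protein is the NeuN antigen used to stain mature neurons, was measured by a pair of probe sets that ran together. On 1376460_at the neuronal arrays read 10.16, 10.15, 8.73 and 8.69, and on 1377095_at they read 10.26, 10.04, 8.44 and 8.42. All 12 other culture arrays lay between 3.81 and 4.88 on both, below the array medians. Neuronal arrays N1 and N2 were thus over 1 log2 unit above N3 and N4, a gap wider than any within the other cultures, yet all 4 were far above every other array. The difference from the mean of the other cultures was 5.13 ± 0.26 (adjusted p = 2.06e-10) on the first and 5.06 ± 0.29 (adjusted p = 9.57e-10) on the second. Non-neuronal cultures did not differ among themselves past the threshold on either (adjusted p = 0.227 to 0.956).

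Among the Hu genes, Elavl2 (HuB) and Elavl4 (HuD) were high in neurons, and Elavl1 gave different answers by probe set. The Elavl3 (HuC) probe sets read above the array medians in every culture. Elavl4 (1389975_at) read 9.15, 9.02, 8.20 and 8.35 in neurons, 5.65, 6.01, 6.36 and 5.67 in oligodendrocyte cultures, 5.41, 4.67, 5.37 and 4.14 in microglia and 3.95, 3.49, 4.03 and 3.94 in astrocytes. All 4 astrocytic arrays and 2 of the 4 microglial arrays lay below their array's median, where background compresses differences. No 2 cultures overlapped, in the order neuron, oligodendrocyte, microglia, astrocyte. Neurons exceeded these by 2.76 (adjusted p = 1.03e-06), 3.78 (adjusted p = 2.01e-08) and 4.83 (adjusted p = 1.77e-09), each ± 0.28. Oligodendrocyte cultures exceeded microglia by 1.03 (adjusted p = 0.0143) and microglia exceeded astrocytes by 1.04 (astrocyte minus microglia -1.04, adjusted p = 0.00870). Both of these smaller calls sat at the minimum difference. The first fell to between 0.77 and 1.00, under it, without oligodendrocyte array O2 or O3 or microglial array M2 or M4, and the second to between -0.92 and -0.87 without astrocytic array A2 or microglial array M1 or M3.

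Elavl2 had 3 probe sets. Of these, 1383736_at read 9.46, 9.13, 10.02 and 9.91 in neurons and 3.56 to 6.01 on the other 12 arrays, and 1383768_at read 9.39, 9.06, 10.01 and 10.07 in neurons and 4.07 to 5.99 elsewhere. The neuronal arrays stood above all others on both, by 4.63 ± 0.24 (adjusted p = 2.34e-10) and 4.65 ± 0.30 (adjusted p = 3.22e-09) against the mean of the other cultures. On the third, 1381677_at, the neuronal arrays read 5.41, 5.62, 5.90 and 6.31, again above the other 12 (4.80 to 5.35), but near the array medians. Its difference of 0.84 ± 0.13 (adjusted p = 3.61e-05) missed the minimum. Here N3 and N4 were above N1 and N2 on all 3 probe sets, the reverse of Rbfox3 and Elavl4.

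Elavl3, the third neuronal Hu gene, differed less between cultures. The level of 1382168_at was 9.38, 9.11, 8.96 and 9.0 in neurons, 8.99, 8.96, 8.14 and 8.53 in oligodendrocyte cultures, 8.26, 8.02, 8.37 and 8.16 in microglia and 7.51, 7.71, 7.26 and 7.35 in astrocytes. Neuronal and oligodendrocyte arrays overlapped, microglial arrays lay below the neuronal ones, and astrocytic arrays were lowest. Every array lay well above its median, and astrocytes held 31.9%, microglia 53.1% and oligodendrocyte cultures 74.4% of the neuronal linear level. Neurons exceeded astrocytes by 1.65 ± 0.17 (adjusted p = 9.22e-07). The differences from microglia (0.91, adjusted p = 0.000340) and from oligodendrocyte cultures (0.46, adjusted p = 0.0439) did not reach the minimum. Its difference from the mean of the other cultures, 1.01 ± 0.14 (adjusted p = 1.73e-05), was called only at the edge and lay between 0.92 and 0.99 when N1, A3, A4, O3, O4 or M2 was left out. The other Elavl3 probe set, 1382169_x_at, followed the same order with a difference of 0.88 ± 0.10 (adjusted p = 2.99e-06). The suffix x marks probes that can bind transcripts of other genes. Hybridisation from paralogues was not tested for either probe set, so levels outside neurons are given as probe set readings only.

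Elavl1 was measured by 3 probe sets that disagreed. On 1375892_at the neuronal arrays read 4.62, 5.81, 6.57 and 6.57, and the other arrays 9.34, 9.20, 9.22 and 9.39 (astrocytes), 9.07, 9.07, 9.52 and 9.29 (oligodendrocyte cultures) and 9.48, 9.64, 9.49 and 9.48 (microglia). The neuronal arrays were far below the rest and spread over nearly 2 units, with N1 below its array's median. On 1391743_at the neuronal arrays read 9.38, 9.43, 9.64 and 9.45, inside the range of the other 12 (8.90 to 10.32). The third, 1393188_at, read 4.19 to 4.92 on all 16 arrays, below every median.

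The first of these was lower in neurons by a difference of -3.46 ± 0.25 from the mean of the other cultures (adjusted p = 1.31e-08). For 1391743_at that difference was -0.20 ± 0.08 (adjusted p = 0.0518), with a 95% interval of -0.37 to -0.03. On this probe set oligodendrocyte cultures were highest (10.22 ± 0.09, SD, n = 4), microglia next (9.68 ± 0.11), then neurons (9.47 ± 0.11) and astrocytes (9.12 ± 0.17). Only the step from astrocytes to oligodendrocyte cultures was called (-1.10 ± 0.10, adjusted p = 4.94e-07). Within an array, 1375892_at minus 1391743_at was -4.76 to -2.88 in neurons, -1.08 to -0.77 in oligodendrocyte cultures, -0.35 to 0.05 in microglia and 0.06 to 0.32 in astrocytes, so the unequal change was present on every neuronal array. Elavl1 transcripts are known to end at alternative polyadenylation sites. Where on the transcript these probe sets lie was not analysed here, so no direction is given for the gene as a whole.

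**Figure D3:**
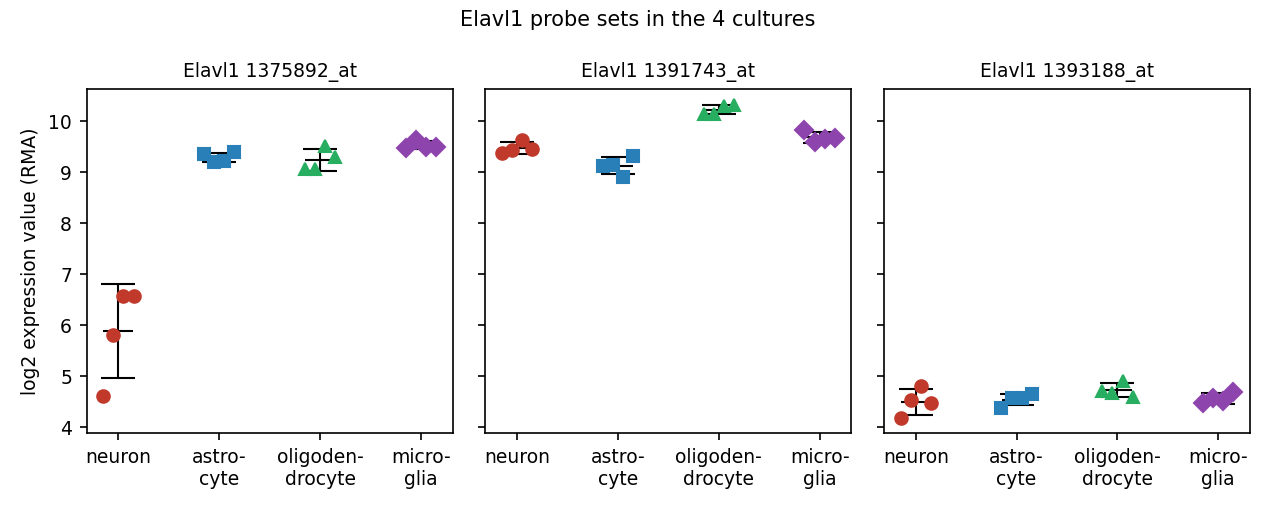
Log2 expression value (y axis) of the 3 Elavl1 probe sets in the 4 cultures; points are arrays and bars give the mean ± SD (n = 4). Neurons are low on 1375892_at, inside the range of the other cultures on 1391743_at, and all 16 arrays lie at 4.19 to 4.92 on 1393188_at.

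The 4 neuronal arrays were uneven in several members. N1 and N2 were above N3 and N4 for Rbfox3 on both probe sets, Elavl3 1382168_at, Elavl4, Celf4 and Ptbp2, and below them for Elavl2 on all 3 probe sets and for Elavl1 1375892_at. Astrocyte markers followed the same split, at 7.71 and 8.61 on N1 and N2 and 10.01 and 9.74 on N3 and N4, and neuronal markers split the same way within a narrower range (10.56 and 10.53 against 10.59 and 10.69). The part of the marker lists in these values was not tested. The labels name no batch, and the fits treat the 4 arrays as independent. The calls in neurons against each other culture were recomputed with either pair of arrays left out, a choice made after these values were seen. Without N1 and N2, Ptbp2 lost its call against oligodendrocyte cultures and Elavl2 1381677_at gained calls against each of the 3 cultures, with differences of 1.04 to 1.21. Without N3 and N4, Elavl3 1382168_at gained a call against microglia (1.04, adjusted p = 0.00130).

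Among the non-neuronal cultures most calls were between astrocytes and oligodendrocyte cultures. There 7 of 14 probe sets were called, all lower in astrocytes, where 15.9% of all probe sets were called and 7.85% were lower in astrocytes. Neuronal markers moved the same way, with 4 of 12 lower in astrocytes, 1 higher and a median difference of -0.63 (array means of 4.89 to 5.21 against 5.56 to 6.31), and their part in these differences was not tested. The 7 belonged to Elavl1 (1391743_at), Elavl2 (1383736_at and 1383768_at), Elavl3 (both), Elavl4 and Ptbp2. For Elavl4 and Ptbp2 the differences were -2.07 (adjusted p = 3.63e-05) and -2.08 (adjusted p = 3.88e-05), and the rest lay between -1.03 and -1.44. The call for 1383768_at (-1.03, adjusted p = 0.0413, with overlapping arrays) had an adjusted p of 0.0504 to 0.124 when any 1 of arrays A1, A2, A3, O1, O2 or M1 was left out. Between astrocytes and microglia 1 probe set was called (Elavl4, lower in astrocytes; 16.2% of all, 7.05% lower), and between oligodendrocyte cultures and microglia 2 were (Elavl4 and Ptbp2, both higher in oligodendrocyte cultures; 10.6% of all, 6.27% higher and 4.29% lower). For Ptbp1, Rbfox3, Celf4 and Elavl1 1375892_at none of these 3 contrasts was called.

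In the mixtures of neuronal and astrocytic RNA, 11 of the 14 probe sets had a slope on the neuronal fraction at an adjusted p under 0.05 in limma over all probe sets, 9 upward and 2 downward, where 14.3% of all probe sets were called (9.32% upward and 5.01% downward). With the replicate number, which marks shared parent RNA, as a block, 7503 of all probe sets were called in place of 4447, and again 11 members. Ptbp1 read 9.63 and 9.60 in NA1, 9.19 and 8.95 in NA2 and 8.26 and 8.39 in NA3, falling with each step with no overlap (slope -2.59 ± 0.25 per unit of fraction, adjusted p = 0.00404). Ptbp2 rose from 7.78 and 7.47 through 8.04 and 8.15 to 8.68 and 8.68 (slope 2.11 ± 0.26, adjusted p = 0.00515). Elavl1 1375892_at fell from 8.78 and 8.88 through 8.26 and 8.40 to 7.39 and 7.47 (slope -2.80 ± 0.28, adjusted p = 0.00404), while 1391743_at read 8.94 to 9.50 throughout (slope 0.22 ± 0.36, adjusted p = 0.775). The split between the Elavl1 probe sets thus appeared in mixtures as well, which contain the same parent RNA and are no independent cultures.

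Celf4 rose from 8.76 and 8.91 in NA1 to 10.08 and 10.15 in NA3, and Elavl4 from 7.04 and 6.78 to 8.41 and 8.41. Their slopes were 2.56 ± 0.26 (adjusted p = 0.00409) and 3.0 ± 0.32 (adjusted p = 0.00411). The calls of 3 probe sets depended on single arrays. Without NA3 replicate 2 the slopes of Elavl3 1382168_at and 1382169_x_at had adjusted p of 0.0563 and 0.10 and that of Rbfox3 1377095_at of 0.10, and the number of all probe sets called fell to 2246. Without NA1 replicate 1 or 2 the adjusted p of the last 2 lay between 0.0609 and 0.0822.

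No member was called when part of the astrocytic RNA was replaced. Between NAO and NA2, which hold the same neuronal fraction, 0 of 14 probe sets were called in limma (1.10% of all were) and 0 had an unadjusted p under 0.05. The differences ran from -0.45 (Rbfox3 1377095_at) to 0.26 (Ptbp2), with 95% intervals reaching from -0.94 to 0.54. Ptbp2, higher in oligodendrocyte than in astrocyte cultures, read 8.35 and 8.37 in NAO against 8.04 and 8.15 in NA2, without overlap (adjusted p = 0.595). From its parent RNA, by the sum described below, Ptbp2 was expected at 8.31 in NAO and 8.12 in NA2. For Elavl1 1391743_at the expected levels were 9.62 and 9.31. Changes of this size lie inside the intervals, so the lack of calls does not show an absence of change. Between NAOM and NAO, again 0 of 14 were called in limma (0.0419% of all) and 0 had an unadjusted p under 0.05, with differences of -0.14 to 0.14 and intervals from -0.61 to 0.51. With the replicate block 1077 and 37 of all probe sets were called in these contrasts in place of 341 and 13, and 0 members in either.

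Because the parent RNA was itself on arrays, an expected level could be computed for each mixture as the fraction-weighted sum of the parents' linear values. This takes mixture and culture arrays to share a scale, and the labels do not say whether they were normalized together. Array medians were 5.25 to 5.31 in cultures and 5.33 to 5.41 in mixtures. Over the 14 probe sets and 10 mixture arrays the median size of the deviation was 0.163 log2 units. Ptbp1 averaged -0.12 relative to expectation, at the 50th percentile of all probe sets, whose median was itself -0.13. Celf4 averaged 0.21 above (99th percentile) and was above on all 10 arrays, most in NA1 (8.84 observed, 8.48 expected). With arrays centred on their medians the mean was 0.11 and 8 of 10 arrays were above. With culture means in place of the stated parents it was 0.34 and 10 of 10 were above. Elavl4 averaged -0.34 (6th percentile) and was below on all 10 arrays, most in NAO (7.69 observed, 8.18 expected). For Elavl4 with arrays centred on their medians the mean was -0.45 and 10 of 10 arrays were below. With culture means in place of the stated parents it was -0.01 with 6 of 10 arrays above. Those means include N3 and N4, which were below N1 and N2 for Elavl4 and are no parents of the mixtures. Mixing on the log2 scale turned the Elavl4 mean to 1.02. The paired Rbfox3 probe sets parted, 1376460_at at 0.06 and 1377095_at at -0.30. With culture means both were higher, at 0.59 and 0.30, and still apart. For Rbfox3 too, N3 and N4 were below N1 and N2. No test was made of these deviations.

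**Figure D4:**
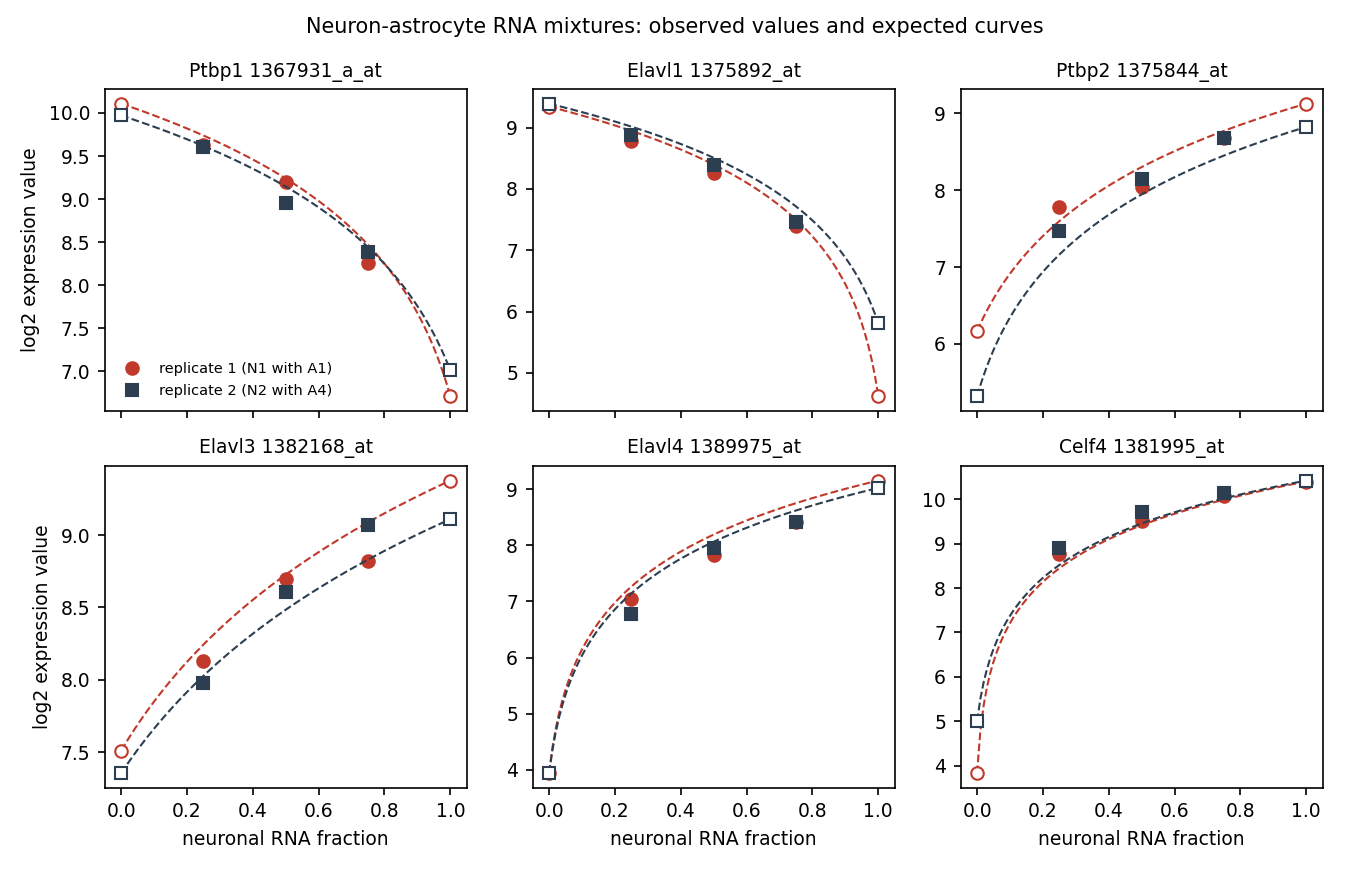
Observed log2 levels (filled points) of 6 probe sets in the neuron-astrocyte mixtures against the neuronal RNA fraction, with the parent arrays as open points at 0 and 1 and the expected curves (dashed) for replicate 1 (N1 with A1) and replicate 2 (N2 with A4). Ptbp1 and Elavl1 1375892_at fall and the others rise along the curves, with Elavl4 below the curves from its stated parents and Celf4 on or above them.

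Genes with a pattern most like a member's were found by Pearson's r over the 16 culture arrays among 14209 other genes, each by its brightest probe set. This is a description, since arrays of a culture share their group. For Celf4 they were Tmem130 (r 0.992), Gucy1a1 (0.989) and the synaptic vesicle fusion protein Snap25 (0.989), with neuronal levels of 12.10, 10.49 and 12.59 and no other culture mean above 5.53. For Ptbp1 they were Lsm14a, an mRNA-binding protein of processing bodies (r 0.990), Magoh, a core protein of the exon junction complex (0.989), and C1h11orf98 (0.986). Magoh stood at 8.60 ± 0.09 in neurons and 9.66 to 9.82 elsewhere. For Ptbp2 they were Rufy3 (r 0.980), Zc4h2 (0.978) and Zfp451 (0.977), which also followed the order neuron, oligodendrocyte, microglia, astrocyte.

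Relatives of the members were examined next, each gene by its brightest probe set, from lists written with earlier results of these data known. Of 9 family relatives, 8 were measured. Against the mean of the other cultures 5 were higher in neurons (11.8% of all probe sets were), 1 lower (10.7% of all) and 2 not called, with a median difference of 1.5 beside -0.07 over all probe sets. Celf5 (10.37 ± 0.66, SD, n = 4, in neurons and at most 4.87 elsewhere) and Rbfox1 (10.18 ± 0.44 against at most 5.12) were higher by 5.82 (adjusted p = 5.32e-11) and 5.20 (adjusted p = 2.83e-12), lower bounds since their means elsewhere lay below the array medians. Rbfox2, found in many tissues, was higher by 3.29 (adjusted p = 2.20e-10), and Celf2, also a broad splicing regulator, by 1.44 (adjusted p = 2.44e-08). Ptbp3, the third polypyrimidine tract-binding protein, was lower by a difference of -2.46 ± 0.14 (adjusted p = 7.92e-10). It was not called against astrocytes, where 0 of the 8 relatives were called lower in neurons. Its order differed from that of Ptbp1: 10.96 ± 0.11 in microglia, 10.09 ± 0.13 in oligodendrocyte cultures, 8.14 ± 0.28 in astrocytes and 7.26 ± 0.38 in neurons. Nova2 lay at 4.10 to 4.14 in every culture, below the medians.

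Next came general splicing factors, the SR proteins, hnRNPs and spliceosome components. Of 30 measured from 32, 4 were lower in neurons, 0 higher and 26 not called against the mean of the other cultures, where 10.7% of all probe sets were lower and 11.8% higher, and the median was -0.48. The share called lower in that contrast was near that over all probe sets. Against oligodendrocyte cultures alone 10 of the 30 were lower (10.6% of all probe sets were) and 0 higher (11% of all). The median was -0.80. Against microglia 7 were lower (11.6% of all) and 1 higher (14.1% of all), with a median of -0.56. Against astrocytes 3 were lower (12% of all) and 1 higher (12% of all), with a median of -0.26. The share called lower was above that over all probe sets against oligodendrocyte cultures and microglia. These sets are not matched. Each listed gene entered by its brightest probe set, while the share over all includes dim probe sets and those without a symbol. The same holds for the other lists, and no test of a list was made. Lower than in each other culture were the SR proteins Srsf9 (6.14 ± 0.09 in neurons, 8.64 to 9.0 elsewhere, difference -2.69, adjusted p = 4.18e-13) and Srsf6 (-1.27, adjusted p = 2.64e-08), and Hnrnpf (-1.89, adjusted p = 2.69e-09). Of 12 other regulated splicing factors measured from 16, 4 were higher (11.8% of all), 2 lower (10.7% of all) and 6 not called, with a median of -0.03. The KH-domain splicing regulators Khdrbs2 (1.97, adjusted p = 0.000116) and Khdrbs3 (1.80, adjusted p = 4.72e-07) were higher than in each other culture, and Rbm38 was lower (-1.47, adjusted p = 9.55e-06). Srrm4, the activator of neuronal microexons, had no probe set by symbol and was not analysed here.

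Of RNA-binding proteins of translation and mRNA transport, 15 were measured from 18. Against the mean of the other cultures 2 were higher (11.8% of all), 3 lower (10.7% of all) and 10 not called, with a median of -0.08. Against oligodendrocyte cultures alone 3 were higher (11% of all were) and 5 lower (10.6% of all were lower). Against astrocytes 2 were higher (12% of all) and 2 lower (12% of all). Against microglia 2 were higher (14.1% of all) and 3 lower (11.6% of all). Cpeb3, a translational regulator at synapses (2.82, adjusted p = 6.64e-11), and Stau2, which carries mRNA into dendrites (1.24, adjusted p = 1.42e-06), were higher than in each other culture, and the granule protein Caprin1 was lower (-1.62, adjusted p = 2.03e-11).

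REST restrains neuronal genes outside neurons. Of 6 genes listed for the REST and miR-124 circuit, 3 were lower in neurons (10.7% of all probe sets were) and 0 higher (11.8% of all), with a median of -0.98. The phosphatases Ctdsp1 and Ctdsp2, which are recruited by REST and are known miR-124 targets, were lower by differences of -3.29 ± 0.09 (adjusted p = 5.02e-13) and -1.74 ± 0.09 (adjusted p = 1.67e-10). Ctdsp1 read 5.32 ± 0.19 (SD, n = 4) in neurons, 9.24 ± 0.08 in astrocytes, 8.04 ± 0.20 in oligodendrocyte cultures and 8.55 ± 0.11 in microglia. The corepressor Rcor1 was lower by a difference of -1.48 (adjusted p = 1.15e-05). Rest itself lay below the array medians in all cultures (4.27 to 4.51) and was not called (-0.17, adjusted p = 0.127).

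Transcripts known as targets of these proteins were mostly higher in neurons, 7 of 9 measured from 12 (11.8% of all probe sets were), with 1 lower (10.7% of all), 1 not called and a median of 2.15. Mapt, the microtubule protein tau (4.35, adjusted p = 5.27e-09), the glycine receptor subunit Glra2 (4.10, adjusted p = 1.72e-13) and the potassium channel Kcnj6 (4.21, adjusted p = 5.88e-11) were higher than in each other culture. These are levels of whole transcripts as the probe sets read them, and exon inclusion was not measured. Of 12 neuronal markers, 12 were higher in the same contrast. Transcripts were not matched to their regulators, so the count carries no result about the regulators.

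**Figure D5:**
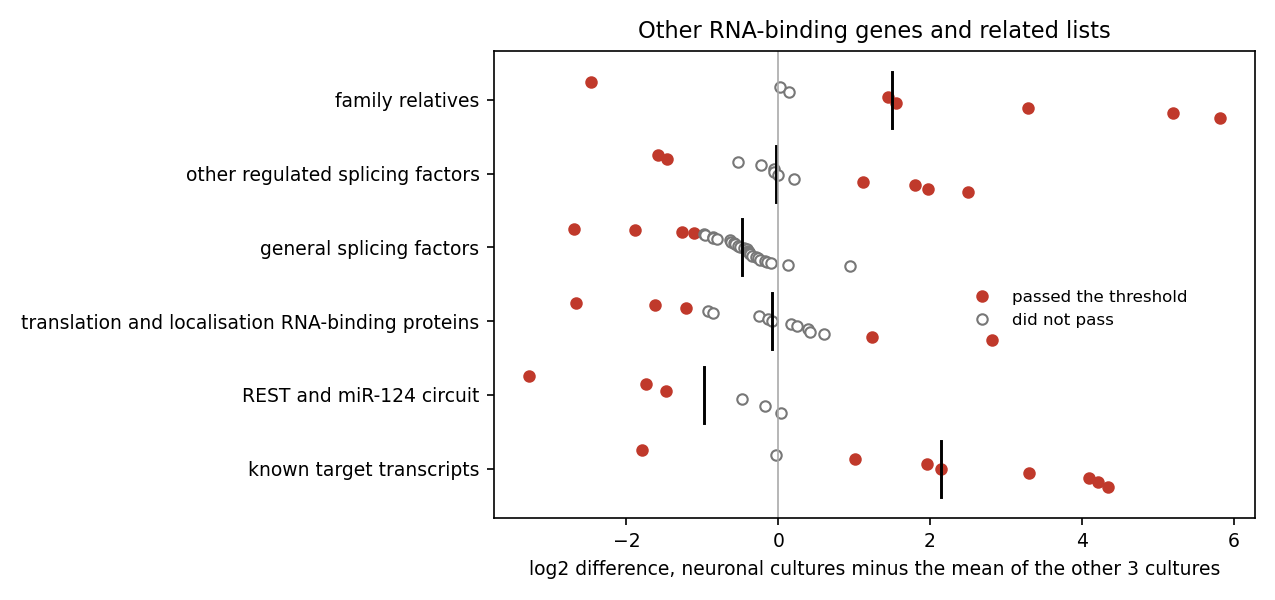
Log2 difference between neuronal cultures and the mean of the other 3 cultures (x axis) for each measured gene of 6 lists; filled points passed the threshold (adjusted p under 0.05 and a difference of at least 1), open points did not, and the black line is the list's median. Relatives and known targets reach to 5.82 and 4.35, while general splicing factors centre on -0.48 with no gene called higher.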

How the data were processed

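Each of the 26 arrays carried biotin-labelled total RNA. What the authors deposited is a table of log2 expression values made with RMA from the affy package, per the submitters' processing notes, with versions not given in the sources used here. RMA as such corrects background, normalizes quantiles over arrays and summarises probes, so a difference in total RNA per cell is not kept. Of 31099 probe sets, 57 controls were left out and 31042 tested, with no filter. Gene symbols came from the platform annotation: 20826 probe sets carried 1 symbol, 436 several and 9780 none, and probe sets with several were not named.

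The 16 culture arrays were fitted in limma 3.58.1 (R 4.3.3, lmFit and eBayes) with 1 mean per culture. The slope used the 6 arrays of NA1 to NA3, and NAO, NA2 and NAOM were compared in a fit of all 10 mixture arrays; mixture calls needed an adjusted p under 0.05 with no minimum difference. The labels call the cultures biological replicates and say no more of their independence. Numbers did not pair the cultures: correlations of same-numbered residuals ran from -0.107 to 0.178 over 24 pairs. They paired the mixtures, which share parents by the labels (0.381 to 0.873 over 20 pairs). The 9 genes and all lists were chosen with earlier results of these data known. From each list at most 3 genes each way were named, by the size of their smallest difference among those called against every other culture, plus Ptbp3, Rbfox1, Rbfox2, Celf2, Srrm4 and Rest; Nova2 was named after its values were seen. The fits were repeated with arrays centred on their medians, with quantiles normalized within cultures or mixtures, with the replicate as a block, without the dimmest 25%, with other minima, with a trended robust variance, on the compared groups alone and without each array in turn. In simulated data, differences of 1.5 and 3 between neurons and astrocytes were called for 89% and 100% of changed probe sets. Slopes of these sizes were called for 41% and 85%. These shares describe the simulated data and are not given as the power of the fits above. Python 3.11.15, pandas 2.3.3, numpy 2.4.6 and matplotlib 3.10.9 were also used.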

Additional observations from a re-analysis of the deposited data

Results flagged for a closer look

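In 56 groups of 4 arrays (14 probe sets in 4 cultures), 3 held an array that stood apart by Dixon's criterion at the 95% level, and chance alone marks about 1 in 20 groups. Astrocyte replicate 4 was high for Elavl2 1383768_at, at 5.81 against 4.07 to 4.22 on the other astrocytic arrays. Astrocyte replicate 2 was low for Elavl4 1389975_at, at 3.49 against 3.94 to 4.03. Microglia replicate 2 was high for Elavl1 1375892_at, at 9.64 against 9.48 to 9.49, a gap that is small beside every difference between neurons and other cultures on that probe set.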

How the results depend on the processing

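Of 79 member differences with an adjusted p under 0.05, none changed sign under any alternative run. Of 60 called, 45 were called under every alternative. The other 61 differences had an adjusted p of 0.05 or more, and 1 of them gained a call: Celf4 1381995_at between astrocytes and oligodendrocyte cultures, at -1.02 (limma adjusted p = 0.0435) without astrocyte replicate 4. With no minimum difference the astrocyte-microglia contrast had 5 members called and the oligodendrocyte-microglia contrast 6. With a minimum of 2 these contrasts had 0 and 0, and the astrocyte-oligodendrocyte contrast 2. Quantile normalization within cultures gave 2 for astrocyte-microglia, and median centring 1 for oligodendrocyte-microglia. Leaving out 1 array gave 0 to 2 for astrocyte-microglia, 1 to 3 for oligodendrocyte-microglia, 6 to 8 for astrocyte-oligodendrocyte and 8 to 11 for the slope. Mixing on the log2 scale raised the median deviation from expectation to 0.665. The replicate block, which pairs mixtures by parents, left every count of members as it was except 6 in place of 7 between astrocytes and oligodendrocyte cultures. The planned second pairing of Ptbp2 and Ptbp1 probe sets gave no further value, since each gene has 1 probe set.

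Over all probe sets, counts with no minimum and with a minimum of 2 were 13747 and 3329 for neuron-astrocyte, 12826 and 2752 for neuron-oligodendrocyte, 15903 and 3734 for neuron-microglia, 15186 and 2781 for neurons against the mean, 10637 and 1918 for astrocyte-oligodendrocyte, 11928 and 2054 for astrocyte-microglia and 8358 and 823 for oligodendrocyte-microglia. NAO against NA2 gave 66 on the compared groups alone and 113 to 175 without 1 array. NAOM against NAO gave 0 on the compared groups alone, 8 without the dimmest probe sets, 24 with a trended robust variance and 1 to 15 without 1 array. The cause of these shifts was not tested. Levels below the array medians limit the folds of neurons over each other culture for Celf4, Rbfox3 and Elavl2 1381677_at, and over astrocytes and microglia for Elavl4 and the other Elavl2 probe sets.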
